A study of Mus musculus with 2 samples.

Results

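The respiratory chain of the inner mitochondrial membrane passes electrons from NADH and succinate to oxygen and pumps protons as it does so, and the ATP synthase uses the returning protons to make ATP. Its 5 complexes are built mostly from subunits encoded in the nucleus. A small set of core subunits of complexes I, III, IV and V is encoded in the mitochondrial genome, whereas complex II is wholly nuclear. Skeletal muscle fibres differ in how much they rely on this machinery. Fibres with the slow or 2A myosin heavy chains are known as the more oxidative, and 2X and 2B fibres as the more glycolytic. Striated muscle also uses its own isoforms of several complex IV subunits.

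The nuclear-encoded subunits were taken by gene name: Ndufa, Ndufb, Ndufc, Ndufs and Ndufv for complex I, Sdha to Sdhd for complex II, Uqcr and Cyc1 for complex III, Cycs for cytochrome c, Cox4 to Cox8 for complex IV and Atp5 for complex V. Of 35163 genes in the table, 105 had such names. Of these, 8 assembly factor names starting with Ndufaf, 9 names with -ps and 3 genes under 50 counts in all cells (Cox6b2, Cox8c and Ndufa4l2) were left out. This gave 85 subunit genes, with 38 in complex I, 4 in complex II, 9 in complex III, 16 in complex IV, 17 in complex V, and Cycs. Cox4i1 was not analysed here. All 85 had a gene of the same name in the GENCODE vM21 annotation of GRCm38, on 19 chromosomes. Of them, Cox6c2, Ndufa11b and Ndufs6b are annotated there as processed pseudogenes and not as protein-coding genes.

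Whole fibres and fibre fragments had been isolated from the FDB, the flexor digitorum brevis of the foot. They were profiled by mcSCRB-seq, a plate method that counts RNA molecules by unique molecular identifiers (UMIs). The cells are taken here as those of 1 untreated C57BL/6J mouse older than 3 months. For its study as a whole, the paper names adult males of both C57BL/6J and DBA2 backgrounds. It gives no number of mice for these cells. Of 763 cells and fragments on 8 plates and 2 sequencing lanes, 171 had more than 5000 detected genes and under 20% of counts from mt- genes, and these are called the kept cells. Each kept cell was assigned to a fibre class by the largest of its Myh1, Myh2, Myh4, Myh7 and Myh8 counts, which gave 117 fast 2X cells (Myh1), 51 fast 2A cells (Myh2), 2 slow cells (Myh7) and 1 fast 2B cell (Myh4). All cells were treated as coming from 1 mouse, so cells are not replicates and no test across cells was made. All limits below are 95% limits of counting error only.

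The kept cells held 28827 to 1542996 counts each, with a median of 255726 in fast 2X and 206510 in fast 2A cells. The classes are parts of a range: the Myh2 share of Myh1 and Myh2 counts had a median of 22.1% in fast 2X and 74.3% in fast 2A cells, and leaving out cells whose leading Myh genes lay within 10 percentage points kept 114 and 47 cells. The other fixed markers followed the names, with Actn3 at 2457 CPM (counts of a class scaled to a class total of 1000000) in fast 2X and 737 CPM in fast 2A, and Tnnt1 at 254 and 2908 CPM. The slow markers Myh7, Myl2 and Tnnc1 were also higher in the fast 2A class, with log2 ratios of 2.48 to 3.15. The 19 markers of other cell types fixed for endothelium, smooth muscle, satellite cells, immune cells, fibroblasts, Schwann cells, red cells and adipocytes summed to 241 CPM in fast 2X and 210 CPM in fast 2A cells. In single cells this sum ran from 46.0 to 13403 CPM in fast 2X and from 87.6 to 1994 CPM in fast 2A. None of the markers was at 0 in either class, and Adipoq was lowest with 13 counts in the kept cells. The 763 cell barcodes were all different, although the 96 well barcodes within them were each used on both lanes.

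A UMI count is a count of molecules and need not grow with transcript length, so levels are given in CPM first and per kilobase only beside it. The 85 genes took 2.77% of the counts of the kept cells. Complex I genes took 1.01% of counts, complex V 0.818%, complex IV 0.533%, complex III 0.307%, complex II 0.0891% and Cycs 0.0135%. By CPM in fast 2X cells the highest gene was Cox6a2, the muscle isoform of a complex IV subunit, at 1203 CPM, followed by the complex V genes Atp5b at 965, Atp5d at 925 and Atp5a1 at 839 CPM. Per kilobase of annotated exon Cox6a2 was again the highest, at 1769 CPM per kb. Cox8b, another muscle isoform, followed at 1434 CPM per kb, and the complex III subunit Uqcr11 was at 795 CPM per kb. Atp5o was left out of the order per kilobase because 2 annotated genes carry its name. Detection was broad, as 45 of the 85 genes had counts in every kept cell.

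To ask whether subunit expression differed between the main fibre classes, CPM in fast 2A cells was compared with CPM in fast 2X cells. The summed level of the 85 genes was 32755 CPM in fast 2A and 26237 CPM in fast 2X cells, a 1.25-fold difference (log2 ratio 0.32, limits 0.31 to 0.33). A gene was called higher in fast 2A when its ratio was at least 1.2-fold with a lower limit above 1, and lower by the mirrored rule. Of the 85 genes, 48 were called higher (56.5%) and 0 lower. Among all 18850 genes with at least 50 counts in the kept cells, 10.4% were called higher and 26.3% lower, and among the 8746 genes with at least 500 counts 11.8% were called higher and 27.8% lower. With 1.5-fold in place of 1.2-fold, 3 subunit genes (3.53%) were called higher and 0 lower, against 4.82% and 14.7% of all genes. The median log2 ratio was 0.28 for the subunit genes and -0.13 for all genes. The ratio was above 0 for 81 subunit genes, and the limits lay above 0 for 76 and held 0 for 9.

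Scaling changed the size of this difference and not its direction. Trimmed mean of M values (TMM) scaling, which sets most genes to no change, moved every log2 ratio up by 0.11, so that the median of all genes became -0.02. On that scale 68 subunit genes (80.0%) were called higher and 0 lower, against 16.3% higher and 18.1% lower of all genes. By complex, 27 of 38 genes of complex I were then called higher, 4 of 4 of complex II, 9 of 9 of complex III, 13 of 16 of complex IV and 14 of 17 of complex V. The counts of all genes called higher and lower were 1961 and 4951 before and 3077 and 3420 after this scaling.

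**Figure D1:**
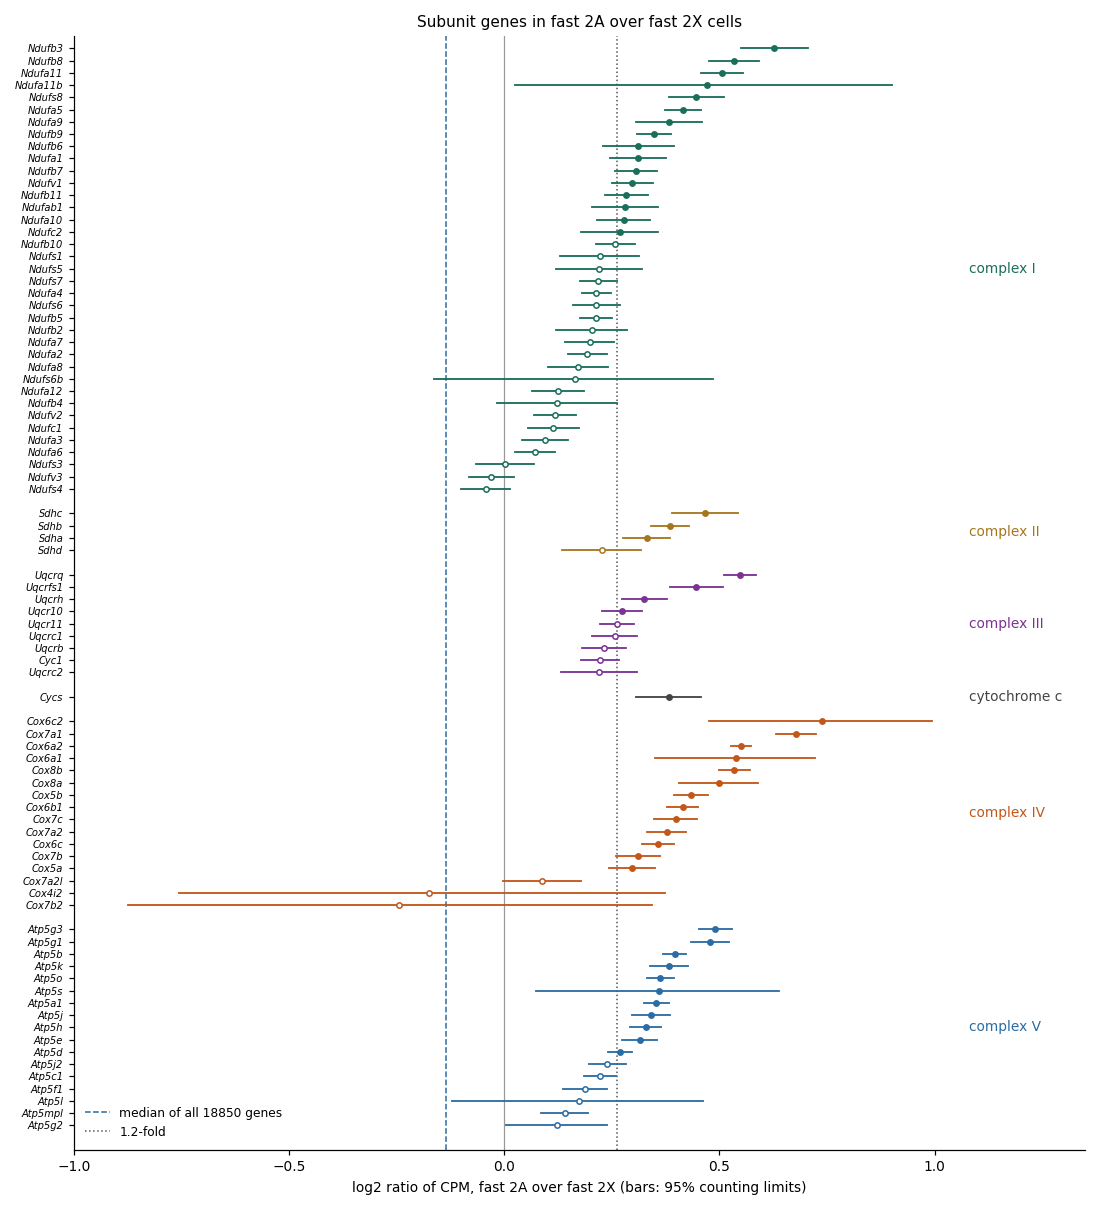
Log2 ratio of CPM in fast 2A over fast 2X cells for 84 of the 85 subunit genes, ordered within complexes; points are ratios of summed counts, bars are 95% counting limits, and filled points are genes called at least 1.2-fold higher. Of the 84 points, 82 lie to the right of the dashed median of all genes at -0.13, and complex IV reaches furthest, apart from Cox7a2l, Cox4i2 and Cox7b2.

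Single cells overlapped widely. The summed level of the 85 genes ran from 6073 CPM over a median of 27151 to 52908 CPM in fast 2X cells, and from 12389 over 32272 to 52144 CPM in fast 2A cells. Of the 51 fast 2A cells, 45 (88.2%) lay above the fast 2X median, and 21 of 117 fast 2X cells (17.9%) lay above the fast 2A median. Below the lowest fast 2A cell lay 6 fast 2X cells, and 1 lay above the highest. That lowest fast 2A cell, at 12389 CPM, held 1994 CPM of markers of other cell types, so the count of 6 rests on it. Without that cell the lowest fast 2A cell was at 22851 CPM, above the lower quartile of the fast 2X cells at 22747 CPM. For all 85 genes taken singly the ranges of the classes overlapped, and for 80 the median over cells was higher in fast 2A.

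Of the 6 lowest cells, all fast 2X, 4 carried many counts of other cell types, and the other two, at 7146 and 11748 CPM, held 520 and 295 CPM of the markers. Of the fast 2X and 2A cells, 5 fast 2X cells and 1 fast 2A cell held over 1000 CPM of the 19 other-cell markers, a limit set after these values were seen. Their summed subunit level was 6073 to 12692 CPM. The leading marker was Myh11 (smooth muscle) in 2 of these cells, Dcn (fibroblasts) in 2 and Pecam1 (endothelium) in 1. Without them the lowest fast 2A cell was at 22851 CPM, the lowest fast 2X cell at 7146 CPM, the log2 ratio of the sums was 0.31, and 46 genes were called higher. The share of all genes called higher without these cells is not given. The part of other cell types in the low levels was not tested beyond this.

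The summed level was higher in fast 2A on every plate, but the size varied and the single genes did not keep 1 direction. On the 7 plates where both classes had 3 cells or more, the log2 ratio of the summed level was 0.03 on plate 705, 0.21 on 706, 0.40 on 707, 0.15 on 708, 0.60 on 709, 0.17 on 711 and 0.46 on 712. Within plate 705, 11 genes were called higher and 10 lower in fast 2A, with a median log2 ratio of 0.015. Within plate 706, 26 were higher and 3 lower. The shares of all genes called within single plates are not given, so these counts cannot be read against them. Plate 705 had 6 fast 2X cells at 34696 CPM, whereas fast 2X cells on the other plates ranged from 21890 to 29533 CPM. Fast 2A cells varied less between plates, from 28914 to 35306 CPM. The median of single fast 2A cells was above that of fast 2X cells on all 8 plates. Of the 85 genes, 28 had a ratio above 0 on all 7 plates compared, and 75 on both lanes.

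**Figure D2:**
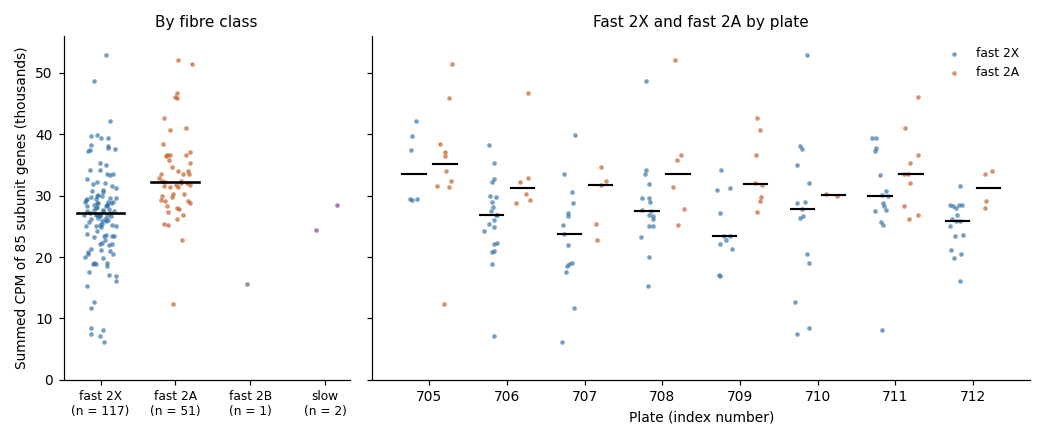
Summed CPM of the 85 subunit genes in each kept cell (points), by fibre class on the left and by plate on the right; black bars are medians over cells, not drawn for the 1 fast 2B and 2 slow cells. The fast 2A median of 32272 CPM lies above the fast 2X median of 27151 CPM, and the cells of both classes overlap on every plate.

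The subunit level did not climb evenly with the Myh2 share. Across the 168 fast 2X and 2A cells, Spearman's rho between the summed level and the Myh2 share was 0.39 (Pearson's r 0.36), but within the 117 fast 2X cells rho was 0.12 and within the 51 fast 2A cells it was -0.16. In steps of 10 percentage points of Myh2 share, the median level was 26432 CPM in 47 cells at 10 to 20%, 27689 CPM in 32 cells at 20 to 30% and 25856 CPM in 27 cells at 30 to 40%. It was 30611 CPM in 10 cells at 40 to 50%, 35061 CPM in 6 cells at 50 to 60%, 30814 CPM in 8 cells at 60 to 70%, 33971 CPM in 21 cells at 70 to 80% and 28967 CPM in 14 cells at 80 to 90%. These cells share plates and are taken to share 1 mouse, and the correlations are descriptions. Spearman's correlation with the total count per cell was -0.06 and with the number of genes -0.12. With the CPM of Ttn, the gene of the giant sarcomere protein titin, rho was -0.31 in fast 2X and -0.61 in fast 2A cells. Ttn counts are part of the same cell total, so a high Ttn level lowers the CPM of other genes. How much of these values comes from that was not tested.

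**Figure D3:**
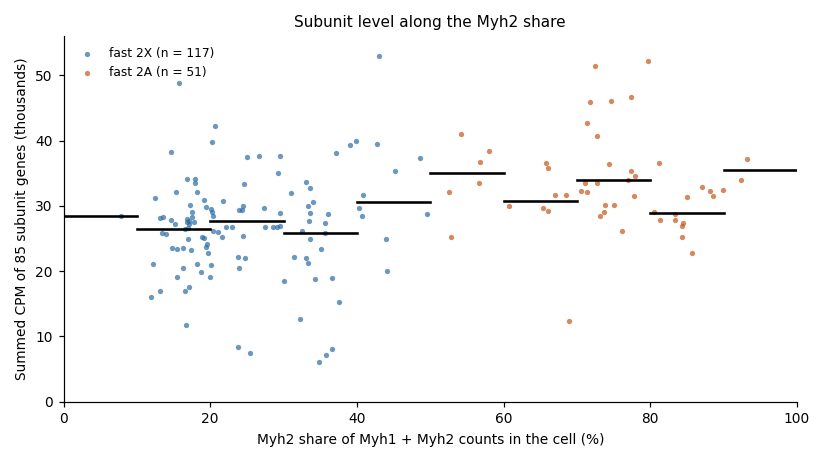
Summed CPM of the 85 subunit genes in each fast 2X and fast 2A cell against the Myh2 share of its Myh1 and Myh2 counts; black bars are medians in steps of 10 percentage points. The medians lie at 25856 to 27689 CPM between 10 and 40% and at 28967 to 35061 CPM between 50 and 90%, with wide overlap of single cells.

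The complexes moved together from cell to cell. Within the 117 fast 2X cells, Spearman's rho between the summed CPM of complexes I and V was 0.91, between I and IV 0.90, between I and III 0.88 and between IV and V 0.84. With every cell thinned to 28827 counts these values were 0.87, 0.82, 0.82 and 0.76. In the 51 fast 2A cells the same unthinned values were 0.83, 0.81, 0.79 and 0.62. Summed levels within a cell share its total count, so part of such a correlation is common to any genes counted against that total. Plates were pooled for these values. The 5 fast 2X cells and 1 fast 2A cell over 1000 CPM of other-cell markers were included, and their part was not tested.

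Complex IV, cytochrome c oxidase, which hands electrons to oxygen, had the largest difference of the complexes with several subunits. Its genes summed to 6725 CPM in fast 2A and 4905 CPM in fast 2X cells (log2 ratio 0.46, limits 0.44 to 0.47), and 13 of 16 were called higher. The difference between complexes was not tested. Among the muscle isoforms, Cox7a1 was at 472 CPM in fast 2A and 295 CPM in fast 2X (1.60-fold, log2 ratio 0.68, limits 0.63 to 0.72). In single cells Cox7a1 ran from 166 over a median of 470 to 953 CPM in fast 2A and from 34.7 over 306 to 1027 CPM in fast 2X, and it was higher in fast 2A on all 7 plates. Cox6a2 was at 1761 and 1203 CPM (log2 ratio 0.55) and Cox8b at 748 and 516 CPM (0.53), and both were also higher on all 7 plates. In single cells Cox6a2 ran from 554 over 1650 to 3445 CPM in fast 2A and from 166 over 1180 to 2559 CPM in fast 2X. The classes overlapped for each of these genes.

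The widely expressed partners of these isoforms were higher in fast 2A as well. Cox6a1 was at 28.6 CPM in fast 2A and 19.7 CPM in fast 2X (log2 ratio 0.54), Cox8a at 116 and 81.9 CPM (0.50) and Cox7a2 at 463 and 357 CPM (0.38). Within plates Cox6a1 turned lower in fast 2A on plates 706 and 707, and Cox8a and Cox7a2 on plate 705. Cox6b1, the most abundant of the remaining subunits in counts, was at 712 and 534 CPM (0.41). The highest ratio of all, 0.74, belonged to Cox6c2 (15.8 and 9.47 CPM), which is annotated as a processed pseudogene. Cox6c2 shares 48.2% of its 66-base stretches, the length of the cDNA reads, with transcripts of Cox6c. Its ratio turned to -0.06 with cells thinned to 1 depth.

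The complex IV genes outside this pattern were few. Cox7a2l, which helps to join complexes into supercomplexes, was at 109 CPM in fast 2A and 103 CPM in fast 2X (log2 ratio 0.09, limits -0.00 to 0.18). Cox4i2, an isoform known from lung and oxygen-sensing cells, had 167 counts in the kept cells (2.94 and 3.32 CPM, limits of the log2 ratio -0.76 to 0.37). Cox7b2, at 2.52 and 2.99 CPM, had limits from -0.88 to 0.34. At this depth no difference could be seen for either, and Cox7b2 was found in 56 of 171 cells.

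The choice between muscle and widely expressed isoforms was nearly the same in both classes for Cox6a and Cox8. Cox6a2 made up 98.4% of Cox6a1 and Cox6a2 counts in fast 2X (limits 98.3 to 98.5) and 98.4% in fast 2A (98.2 to 98.6). Cox8b made up 86.3% of the Cox8 pair in fast 2X (85.9 to 86.7) and 86.6% in fast 2A (85.9 to 87.2). Cox7a1 made up 45.2% of the Cox7a pair in fast 2X (44.6 to 45.9) and 50.4% in fast 2A (49.5 to 51.4), so these intervals did not overlap. The Cox7a1 share was 45.4% and 45.1% in fast 2X cells on lanes 1 and 2, and 49.9% and 51.2% in fast 2A cells. In fast 2X the order within this pair depended on the scale: Cox7a1 was below Cox7a2 in CPM (295 and 357) and above it per kilobase of exon (551 and 378 CPM per kb).

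In single cells the Cox7a1 share ran from 18.2% over a median of 45.4% to 85.7% in fast 2X and from 38.6% over 51.5% to 72.3% in fast 2A. The Cox6a2 share ran from 50% to 100% in fast 2X and from 76.9% to 100% in fast 2A, and the lowest Cox8b shares were 26.7% and 35.5%. The lowest values of the Cox6a2 and Cox8b shares fell in the 6 cells with over 1000 CPM of other-cell markers, and they rested on few counts, 20 of the Cox6a pair at 50% and 15 of the Cox8 pair at 26.7%. The lowest Cox7a1 share rested on 11 counts. Without these cells the Cox6a2 share was at least 84.6% in fast 2X and 95.6% in fast 2A, and the Cox8b share at least 64.0% and 75.5%. Of the other pairs, Ndufa4l2 had 2 counts beside 36849 of Ndufa4, and Cox6b2 had 6 beside 29774 of Cox6b1.

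**Figure D4:**
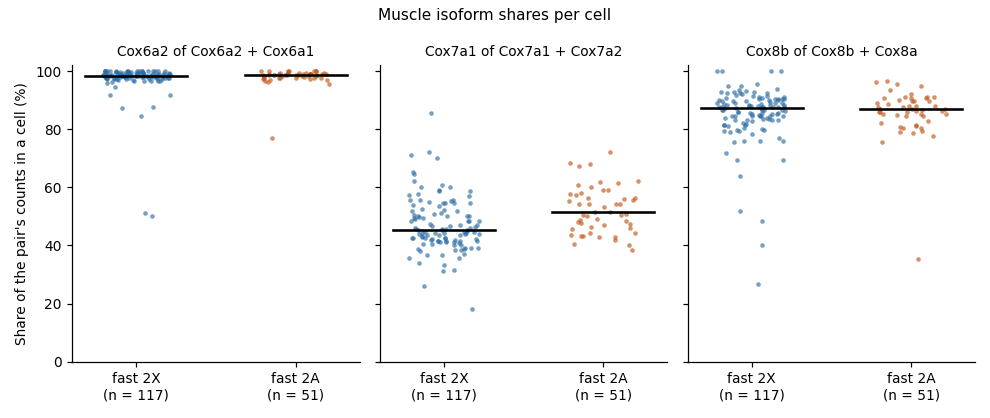
Share of the muscle isoform in the counts of each isoform pair in single fast 2X and fast 2A cells (points); black bars are medians over cells. Cox6a2 sits near 98% in both classes with a few cells far below, Cox7a1 is spread around 45.4% in fast 2X and 51.5% in fast 2A, and Cox8b lies near 87%.

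The upstream sequences of 5 of these isoform genes are shown because the pairs share a function and differ in tissue, and none is printed for Cox6a2. They are RefSeq windows of GRCm38.p6 from 170 bases before to 2 bases after the transcription start, 5′ to 3′ on the gene's strand, with matches of 4 short motifs in capitals. The motifs, searched on both strands, were GCATGCG (core of the NRF1 motif), CCGGAAG (ETS factors such as GABPA), AAGGTCA (bound by the ERR receptors) and TATAAA. NRF1, GABPA and the ERR receptors are known regulators of respiratory genes.
Cox7a1, chr7:30184001-30184172, plus strand: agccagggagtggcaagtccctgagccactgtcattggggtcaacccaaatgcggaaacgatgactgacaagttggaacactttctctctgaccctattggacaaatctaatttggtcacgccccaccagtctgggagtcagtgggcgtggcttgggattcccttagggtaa
Cox7a2, chr9:79759852-79760023, minus strand: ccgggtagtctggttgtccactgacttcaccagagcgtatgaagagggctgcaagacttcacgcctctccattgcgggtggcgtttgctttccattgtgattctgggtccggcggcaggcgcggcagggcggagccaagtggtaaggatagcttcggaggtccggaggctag
Cox8b, chr7:140900445-140900616, minus strand: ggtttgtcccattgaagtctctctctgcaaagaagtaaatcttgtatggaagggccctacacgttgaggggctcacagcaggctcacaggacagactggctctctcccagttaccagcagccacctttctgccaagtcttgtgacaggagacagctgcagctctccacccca
Cox8a, chr19:7217615-7217786, minus strand: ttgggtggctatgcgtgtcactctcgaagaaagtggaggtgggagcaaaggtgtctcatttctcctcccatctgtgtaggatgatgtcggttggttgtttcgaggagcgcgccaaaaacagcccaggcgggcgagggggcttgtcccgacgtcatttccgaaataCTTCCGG
Cox6a1, chr5:115348957-115349128, minus strand: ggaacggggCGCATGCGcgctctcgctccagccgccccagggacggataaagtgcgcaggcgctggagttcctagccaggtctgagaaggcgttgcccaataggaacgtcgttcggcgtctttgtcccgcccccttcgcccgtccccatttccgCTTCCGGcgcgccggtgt

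The widely expressed Cox8a and Cox6a1 each carried the ETS motif here, and Cox6a1 also the NRF1 core in both orientations, which overlap as a near palindrome. None of the 4 motifs lay in the windows shown for Cox7a1, Cox7a2 and Cox8b, although Cox8b had TATAAA 4 bases after the start, beyond the stretch printed. Promoter windows from 250 bases before to 50 after the start were matched for 68 of the 85 genes. The NRF1 core was in 12 of these 68 (17.6%), against 4.01% of all 27025 genes in the table, and the ETS motif in 16 (23.5%) against 9.93%. The ERR motif was in 8 (11.8%) against 5.38%, and TATAAA in 7 (10.3%) against 15.7%. The 27025 genes were not filtered by expression in these cells or by gene type, so they are an unlike set to the members. Shares among genes expressed at like levels were not taken. The median log2 ratio was 0.30 in the 12 genes with the NRF1 core and 0.29 in the 56 without, and 0.33 in the 16 with the ETS motif and 0.27 in the 52 without. It was 0.22 in the 8 genes with the ERR motif and 0.30 in the 60 without, and 0.20 in the 7 with TATAAA and 0.30 in the 61 without. These differences were not tested. A match of letters is not a measured binding site.

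Complex I, NADH dehydrogenase, is the largest complex, and its ratios ran from -0.04 to 0.63. Its 38 genes summed to 11427 CPM in fast 2A and 9733 CPM in fast 2X cells (log2 ratio 0.23, limits 0.22 to 0.24), and 16 were called higher. The highest were accessory subunits of the membrane arm: Ndufb3 at 168 and 109 CPM (log2 ratio 0.63), Ndufb8 at 290 and 200 CPM (0.53) and Ndufa11 at 402 and 283 CPM (0.51). Ndufb3 ran in single cells from 41.1 over 169 to 312 CPM in fast 2A and from 0 over 108 to 323 CPM in fast 2X. Ndufb8 is overlapped by another annotated gene, Gm20538, on 4.26% of its exon bases, and its ratio was -0.00 on plate 705.

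Of the 7 nuclear core subunits of complex I, which carry the flavin and the iron-sulphur clusters or form the quinone site, 2 were called higher, Ndufs8 (log2 ratio 0.45) and Ndufv1 (0.30). Of the 31 other genes taken by name for complex I, 14 were called higher. These 31 include Ndufa4 and the annotated pseudogenes Ndufs6b and Ndufa11b, of which Ndufa11b was called higher. The core subunit Ndufv2 was at 374 and 344 CPM (0.12) and Ndufs3 at 195 and 195 CPM (0.00, limits -0.07 to 0.07). Ndufs4 and Ndufv3, accessory subunits of the peripheral arm, were the lowest well-counted members. Ndufs4 was at 279 CPM in fast 2A and 288 CPM in fast 2X (-0.04, limits -0.10 to 0.01), and ran in single cells from 60.7 over 257 to 554 CPM and from 50.3 over 284 to 639 CPM. Ndufv3 was at 322 and 329 CPM (-0.03, limits -0.08 to 0.02), with a ratio above 0 on 1 of 7 plates. On the TMM scale both lay above 0.

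The remaining low ratios were those of Ndufa6 (0.07), Ndufa3 (0.09) and Ndufc1 (0.11), all accessory subunits. Of the most abundant complex I genes in counts, Ndufa4 was at 796 and 686 CPM (0.21) and Ndufb5 at 664 and 573 CPM (0.21). Neither was called, and Ndufa4 is now known as a subunit of complex IV. The remaining annotated pseudogenes, Ndufa11b and Ndufs6b, had 217 and 428 counts in the kept cells and ratios of 0.47 and 0.16.

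Complex II, succinate dehydrogenase, which also belongs to the citric acid cycle, had 3 of 4 genes called higher. The flavoprotein Sdha was at 311 CPM in fast 2A and 247 CPM in fast 2X (log2 ratio 0.33), the iron-sulphur subunit Sdhb at 487 and 373 CPM (0.38) and the membrane anchor Sdhc at 165 and 119 CPM (0.47). Sdhd, the other anchor, was at 111 and 94.6 CPM (0.23, limits 0.13 to 0.32) and was not called. Sdhb in single cells ran from 166 over 497 to 1179 CPM in fast 2A and from 50.8 over 384 to 1475 CPM in fast 2X, so the fast 2X cells held both the lowest and the highest value.

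Complex III, the cytochrome bc1 complex, and cytochrome c carry electrons from ubiquinol to complex IV. Complex III genes summed to 3639 CPM in fast 2A and 2905 CPM in fast 2X (log2 ratio 0.32, limits 0.31 to 0.34), and 4 of 9 were called higher. Uqcrq had the highest ratio, at 728 and 498 CPM (0.55, limits 0.51 to 0.58). Its single cells ran from 295 over 672 to 1249 CPM in fast 2A and from 69.4 over 521 to 1287 CPM in fast 2X. Uqcrfs1 was next at 255 and 187 CPM (0.45). On plates 705, 706, 708 and 709 Uqcrfs1 had the higher ratio (0.52, 0.50, 0.43 and 1.02, against 0.09, 0.30, 0.15 and 0.96 for Uqcrq). On plates 707, 711 and 712 Uqcrq had the higher ratio. The other 8 had ratios from 0.22 to 0.45. Among them were the catalytic subunit Cyc1 at 456 and 391 CPM (0.22), not called, and Uqcr11 at 611 and 510 CPM (0.26), just under the 1.2-fold limit. Cycs, the mobile carrier, was at 164 and 126 CPM (0.38, limits 0.31 to 0.46), and 24.5% of its 66-base stretches are shared with other annotated genes.

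Complex V, the ATP synthase, had 11 of 17 genes called higher and summed to 9726 CPM in fast 2A and 7733 CPM in fast 2X (log2 ratio 0.33, limits 0.32 to 0.34). The catalytic beta subunit Atp5b was at 1269 and 965 CPM (0.40), the alpha subunit Atp5a1 at 1073 and 839 CPM (0.35) and the delta subunit Atp5d at 1115 and 925 CPM (0.27). Atp5b in single cells ran from 240 over 1393 to 2447 CPM in fast 2A and from 125 over 1022 to 2783 CPM in fast 2X. Of the 5 genes of the F1 head and stalk 4 were called higher, and of the 4 peripheral stalk genes 3. All 17 ratios lay between 0.12 and 0.49.

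The 3 genes for the c subunit of the membrane ring, which encode the same mature protein, did not move alike. Atp5g3 was at 638 and 454 CPM (log2 ratio 0.49), Atp5g1 at 512 and 368 CPM (0.48) and Atp5g2 at 66.5 and 61.1 CPM (0.12, limits 0.00 to 0.24). Atp5g2 made up 6.93% of the counts of the 3 genes in fast 2X (limits 6.66 to 7.20) and 5.47% in fast 2A (5.11 to 5.85). It shares 36.7% of its 66-base stretches with other annotated genes. Over all members, 14 share at least 10% in this way, and without them 42 of 71 genes were called higher with a median log2 ratio of 0.30. Of all genes, whose shared stretches were not counted, 10.4% were called higher. Exons of 27 members are overlapped by another annotated gene, 23 of them by one on the other strand.

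The protein-coding genes of the mitochondrial genome were compared as the partners of the nuclear subunits. The set was incomplete: of 13 such genes 11 had rows, mt-Nd3 had 0 counts and mt-Co2 only 68 in the kept cells. The 10 with at least 50 counts summed to 27248 CPM in fast 2A and 22403 CPM in fast 2X (log2 ratio 0.28). Of these, 6 were called higher and 0 lower, against 10.4% and 26.3% of all genes. The sum and the correlations below cover only the genes counted. mt-Co1, a complex IV core subunit, was at 3624 and 2534 CPM (0.52), mt-Cytb of complex III at 6961 and 6038 CPM (0.21) and mt-Nd1 of complex I at 5668 and 4943 CPM (0.20). From cell to cell, Spearman's rho between their sum and that of the nuclear subunits was 0.07 in fast 2X and -0.06 in fast 2A cells (Pearson's r -0.22 and -0.23). The filter on the mt- share bounds these values, and the median mt- share was 5.01% in fast 2X and 6.96% in fast 2A cells.

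Other gene lists of energy metabolism differed in direction. Beside them, 10.4% of all genes were called higher and 26.3% lower, with a median log2 ratio of -0.13. On the TMM scale these shares were 16.3% and 18.1%. Of 12 beta-oxidation genes with at least 50 counts 9 were called higher in fast 2A and 0 lower, with a median log2 ratio of 0.43, and Acadm, a dehydrogenase of medium-chain fatty acids, was at 142 and 75.5 CPM (0.91). Of 14 citric acid cycle genes 7 were called higher and 0 lower, with a median of 0.25. Idh2 was at 99.3 and 44.5 CPM (1.16) and Idh3a at 171 and 205 CPM (-0.26). Of 13 glycolysis genes 0 were called higher and 9 lower, with a median of -0.37, and on the TMM scale 6 were called lower. The assembly factors of the same complexes help to build them but are not part of them. Of these, 8 of 41 were called higher (19.5%) and 5 lower (12.2%), and on the TMM scale 13 higher and 4 lower. Their median of 0.02 was below that of the subunits and above that of all genes. Among 6 carriers and porins, Slc25a3, the phosphate carrier, was the 1 called higher.

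Of 9 transcriptional regulators of mitochondrial genes, 4 were called higher and 0 lower, against 10.4% and 26.3% of all genes. Esrrg was at 198 CPM in fast 2A and 111 CPM in fast 2X (log2 ratio 0.83), Ppara at 15.4 and 10.5 CPM (0.54) and Ppargc1b at 89.0 and 66.9 CPM (0.41). Gabpa, with 531 counts in the kept cells, was at 11.8 and 9.67 CPM (0.29, limits 0.00 to 0.57), with the lower limit barely above 0. Gabpa also overlaps 12.7% of the exon bases of the subunit gene Atp5j on the other strand. Ppargc1a, the related coactivator, was at 76.3 and 75.1 CPM (0.02, limits -0.09 to 0.13), Nrf1 had a ratio of 0.07 and Tfam 0.03. All these lists, and the subunits, were compared within the same cells, so their values are not independent.

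**Figure D5:**
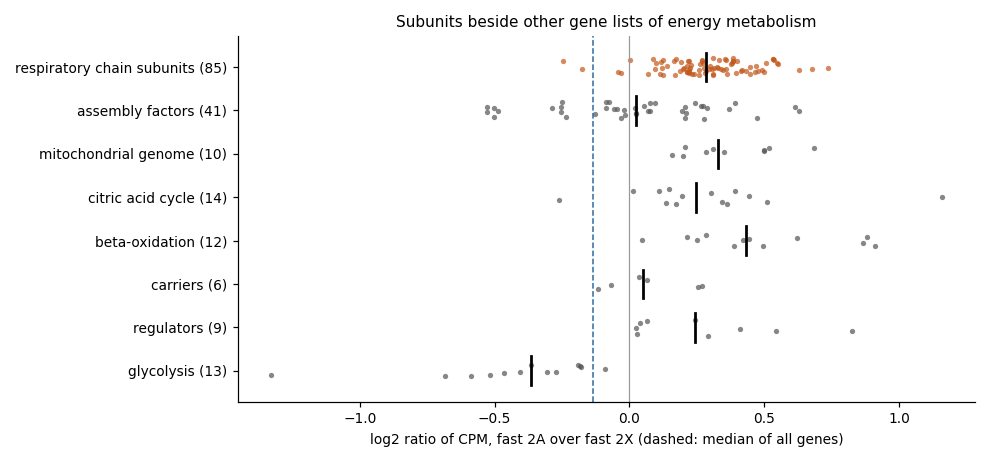
Log2 ratio of CPM in fast 2A over fast 2X cells for single genes (points) of the respiratory chain subunits and 7 other lists, with the number of genes with at least 50 counts in brackets; black bars are medians and the dashed line is the median of all genes. The subunits centre on 0.28, beta-oxidation on 0.43, assembly factors on 0.02 and glycolysis on -0.37.

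The 3 remaining kept cells were single cases. The summed subunit level was 24436 and 28460 CPM in the 2 slow cells, within the range of both fast classes, and 15575 CPM in the fast 2B cell. The fast 2B cell held 2443 CPM of other-cell markers, and its Cox8b share was 45.9%. The Cox6a2 share was 99.4% and 98.9% in the slow cells and 85.7% in the fast 2B cell, and the Cox7a1 share was 52.1%, 44.3% and 41.7%.

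The 592 cells left out by the filters were compared over the counts of genes that do not start with mt-, because the filter acts on the mt- share. On this scale the subunits summed to 21388 CPM in the cells left out and 29461 CPM in the kept cells (log2 ratio -0.46, limits -0.47 to -0.45). Of the 85 genes 71 were called lower in the cells left out and 4 higher, against 19.4% lower and 49.6% higher among 20063 genes. The median log2 ratio was -0.59 for the subunits and 0.43 for all genes. Cycs was at 55.5 and 144 CPM (-1.37), Ndufa4 at 394 and 755 CPM (-0.94) and Atp5b at 703 and 1100 CPM (-0.65).

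The 4 subunit genes that were higher in the cells left out all belonged to complex IV: Cox6b1, Cox6a1, Cox4i2 and Cox7b2. Cox6b1 was at 1244 CPM there and 610 CPM in the kept cells (log2 ratio 1.03, limits 0.99 to 1.06), and Cox6a1 at 47.0 and 23.6 CPM (0.99). The Cox6a2 share was 95.7% in the cells left out and 98.4% in the kept cells. Depth, mt- share and the number of fragments differ between these groups by the filter, with 90 fragments among the cells left out and 3 among those kept, so their parts cannot be told apart. With an mt- limit of 10% in place of 20% the log2 ratio of the sums was -0.25.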

How the data were processed

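The deposited table held whole-number UMI counts per gene beside 10 descriptive rows for each of 763 cells. The authors made it with zUMIs, which maps reads with STAR 2.5.4b and counts with featureCounts, on mm10 (GRCm38) with spike-in sequences added. Default settings were used, per the study's methods, which do not spell out the strand and intron settings. The gene rows held 96.0% of the deposited UMI totals of the kept cells. Counts were summed per fibre class and divided by the class total (CPM). Ratios have exact conditional binomial limits and shares have Clopper-Pearson limits. Limits cover counting error only. The ratio code was tested on simulated counts. Doublets were not called, since cells were sorted singly into wells. Named genes were the 10 highest and 10 lowest ratios among members with at least 500 counts and, with no such minimum, the 3 most abundant and the farthest from the members' median in each complex, the isoform pairs, Sdha to Sdhd, Cyc1 and Cycs. Other names were chosen after their values were seen. The members, lists and this rule were chosen with earlier results of these data known. Positions and exon lengths came from GENCODE vM21, promoters from RefSeq GRCm38.p6 (66 members matched by symbol, 2 by synonym). Analyses used Python with numpy, pandas and scipy. Values of 1 subunit gene and of 1 marker gene are not reported here.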

Additional observations from a re-analysis of the deposited data

Results flagged for a closer look

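The 9 gene rows with -ps in their names were left out of the subunits by name alone. Their annotated gene type was not looked up, so the name does not show that a row is a pseudogene. They held counts in the kept cells, above the 3 counts that an observed 0 allows. Ndufb1-ps held 9562 counts, at 178 CPM in fast 2A and 187 CPM in fast 2X cells (log2 ratio -0.07, limits -0.14 to 0.00), a level close to that of the complex I subunit Ndufs3 at 195 CPM in both. Uqcrh-ps2 held 265 counts, Uqcrh-ps1 and Atp5k-ps2 160 each, Atp5c1-ps 138, Ndufab1-ps 115, Atp5l-ps2 97, Atp5l2-ps 64 and Atp5l-ps1 31. None of the 9 was called higher or lower between the fast classes.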

How the results depend on the processing

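The log2 ratio of the summed subunits, 0.32 in fast 2A over fast 2X, stayed above 0 under every alternative run, and only its size moved. It was 0.35 over counts of genes that do not start with mt-, 0.43 with TMM factors, 0.25 between medians over cells, 0.31 with cells thinned to one depth, 0.34 without cells near the class boundary, 0.33 with an mt- share under 10%, 0.33 with mt-Rnr1 and mt-Rnr2 left out of that share, and 0.31 without the cells over 1000 CPM of other-cell markers. Leaving out 1 lane gave 0.25 to 0.38, and leaving out 1 plate gave 0.28 to 0.36. Leaving out plates, fragments or the cells rich in other-cell markers was chosen after seeing the data.

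Within plates 705, 706, 707, 708, 709, 711 and 712 it was 0.025, 0.21, 0.40, 0.15, 0.60, 0.17 and 0.46, and the median subunit ratio (0.28 overall) was 0.015, 0.20, 0.37, 0.15, 0.58, 0.15 and 0.45. That median was 0.40 with TMM factors and 0.24 to 0.35 with 1 lane left out. The number of genes called higher (48 overall) was 11 within plate 705, 26 within 706, 22 within 708, 22 within 711, and 3 at 1.5-fold. The number called lower (0 overall) was 10 within plate 705, 3 within 706, 2 within 711, 1 within 709, 1 within 712, 2 for means over cells, 1 with the mt-Rnr genes left out, and 0 to 1 with 1 plate left out. Apart from the count at 1.5-fold, these alternative counts, within plates and otherwise, stand without the shares of all genes called in the same runs. Fewer cells per plate widen the counting limits, and the cause of the spread between plates was not tested.

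The ratio between cell medians was 0.25, and 0.26 after thinning. As means over cells the shares were 97.3% and 98.1% for Cox6a2, 47.1% and 52.3% for Cox7a1 and 84.9% and 85.7% for Cox8b in fast 2X and fast 2A. The ratio of cells left out to kept cells was -0.46, and -0.44 for means over cells and -0.25 at an mt- limit of 10%. Of the named genes called higher, the following turned lower in fast 2A: on plate 705 Atp5d (-0.024), Cox6b1 (-0.061), Cox7a2 (-0.033), Cox8a (-0.11) and Ndufb8 (-0.0017), on plate 708 Atp5d (-0.049) and Sdhc (-0.061), on plates 706 and 707 Cox6a1 (-0.52 and -0.29), on plate 709 Cox6c2 (-0.53), and after thinning Cox6c2 (-0.056). All cells were treated as coming from 1 mouse, so no alternative bears on the spread between mice. Counting limits of single subunits reached a median of 0.05 to either side on the log2 scale. No paired analysis was possible because the lanes are taken to hold cells of the same mouse and no test was made.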
